A study of Rattus norvegicus with 12 samples.

Results

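RNA levels of 10 genes that carry glucose to lactate (Hk1, Hk2, Gpi, Pfkl, Pfkp, Aldoa, Pgk1, Pgam1, Eno1 and Ldha) were followed in normal and tumor rat liver cells with and without arginine. Members were the probe sets of the array, that is, sets of short DNA probes for 1 transcript, whose annotation gives exactly 1 gene symbol and that symbol is one of the 10. The rule found 15 probe sets for all 10 genes, among 15923 probe sets on the array, where 10412 genes have a probe set with 1 symbol. Of these, 11 passed the filter on low signals and were tested, with at least 1 for each of the 10 genes. The other 4 were 3 array control probe sets of Hk1 and 1 dim probe set of Pgk1.

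Tumor cells were GP7TB, a chemically transformed derivative of the normal line that forms hepatic tumors when transplanted into rats of the same strain. Normal cells were WB-F344, a diploid hepatic epithelial line taken from an adult Fischer-344 rat, a male. Each cell type is 1 line, so differences between them are between 2 lines, not between tumors and livers. For 18 hours both lines were kept in Chee's Essential Medium with 5% fetal bovine serum, either without arginine (0 g/l, arginine-deficient) or with it (0.168 g/l of L-Arginine HCl, arginine-sufficient). Each of the 4 groups held 3 cultures with 1 array apiece, 12 in all. They came from 3 independent experiments per cell line that each paired an arginine-deficient with an arginine-sufficient culture. Signals are in Microarray Suite units on a linear scale.

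Glycolysis splits glucose into pyruvate in the cytosol, and lactate dehydrogenase turns pyruvate into lactate while restoring the cofactor that glycolysis needs. Most steps have several isozymes, and liver-derived tumors commonly express hexokinase 2, which healthy hepatocytes largely lack. Transcription of many of these genes is raised by the hypoxia factor HIF1 and by MYC. The study asked which genes of liver cells respond to a short lack of arginine, and whether tumor cells differ in this from normal ones.

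In tumor cells the RNA of enolase, both probe sets of phosphoglycerate kinase, hexokinase 2 and the platelet type of phosphofructokinase was higher than in normal cells, by 1.68-fold to 3.39-fold, whether or not arginine was present. Ldha, aldolase, glucose-6-phosphate isomerase and the liver type of phosphofructokinase did not pass the test in either medium. Without arginine 6 of 11 member probe sets were higher in tumor cells and 0 were lower, where 19.5% of all 9745 tested probe sets were higher and 21.2% lower. With arginine 7 of 11 were higher and 0 lower, against 16.4% and 18.1% of all. The median log2 change of the 11 was 0.55 without arginine (all tested probe sets, 0.01) and 0.67 with arginine (all, 0.00). All tumor arrays lay above all normal arrays for 6 of 11 without arginine and 7 of 11 with it, against 24.5% of all tested probe sets in either medium. Members were chosen with earlier results of these data known, and Pgk1 counts with both its probe sets, so these shares are descriptive only.

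**Figure D1:**
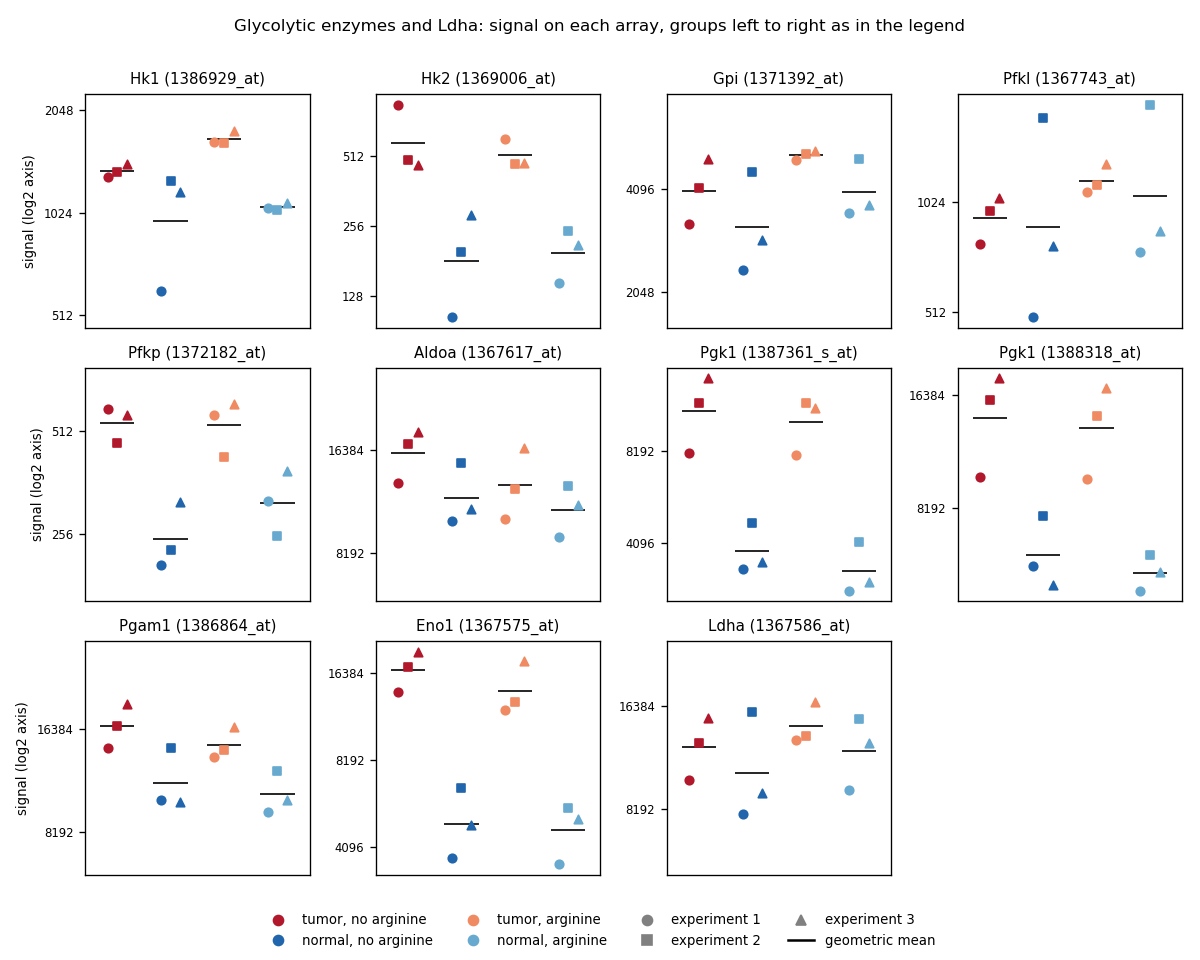
Signal of each of the 11 tested member probe sets on each of the 12 arrays, on a log2 axis. Points are arrays, with colour for the group and shape for the experiment, and the line is the geometric mean of 3 arrays. The 4 groups separate by cell line for Eno1, Pgk1, Hk2 and Pfkp and overlap for Ldha, Gpi, Pfkl and Aldoa.

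Promoter sequence is shown for Eno1 and Hk2, which had the largest changes between the lines without arginine on the measured signals, and for Ldha, which did not pass. Of the 10 genes, 9 matched RefSeq entries (build GRCr8), with 13 start sites; Pgk1 did not match. Each window holds the 250 bases before a start site, 5′ to 3′ on the gene's strand. Capitals mark ACGTG on either strand, 1 form of the core of the sites that HIF1 binds. The other form, GCGTG, which the printed Eno1 and Ldha windows also hold, was not marked or counted.
Eno1, chr5:166003111-166003360, plus strand, the second of 2 listed start sites: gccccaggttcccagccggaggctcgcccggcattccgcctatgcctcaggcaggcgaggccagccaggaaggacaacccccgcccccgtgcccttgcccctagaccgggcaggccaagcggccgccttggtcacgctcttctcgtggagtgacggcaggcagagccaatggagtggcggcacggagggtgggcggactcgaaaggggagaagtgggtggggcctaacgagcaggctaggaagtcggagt
Hk2, chr4:116841276-116841525, minus strand: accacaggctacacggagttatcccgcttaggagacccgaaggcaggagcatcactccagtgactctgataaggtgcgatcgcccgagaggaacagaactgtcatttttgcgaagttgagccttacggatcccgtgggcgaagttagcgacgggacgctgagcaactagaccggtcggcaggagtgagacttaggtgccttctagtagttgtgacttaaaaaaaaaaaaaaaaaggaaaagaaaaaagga
Ldha, chr1:106507842-106508091, plus strand: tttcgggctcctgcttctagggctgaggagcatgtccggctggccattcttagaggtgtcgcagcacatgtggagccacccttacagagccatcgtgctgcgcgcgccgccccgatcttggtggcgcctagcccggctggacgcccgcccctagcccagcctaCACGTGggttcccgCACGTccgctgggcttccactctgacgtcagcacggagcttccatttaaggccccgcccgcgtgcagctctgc
The ACGTG core stood in 4 of the 13 windows, 1 each of Hk1, Aldoa, Pgam1 and Ldha, and in 16.6% of 33469 rat promoter windows of the same length. The windows of Eno1 and Hk2 had 0 matches to ACGTG. Ldha had 3 matches, at 87, 86 and 73 bases before its start site, of which the first pair are the 2 strands of 1 CACGTG, the E-box that MYC binds. CACGTG stood in 1 of the 13 windows and in 5.59% of all. A match describes these letters only.

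Hexokinases trap glucose in the cell as glucose-6-phosphate. Hk2, the isozyme of muscle and of many tumors, had signals of 852, 492 and 471 in tumor cells without arginine (experiments 1 to 3), against 104, 198 and 287 in normal cells without arginine. With arginine it had 607, 473 and 477 in tumor cells, against 146, 245 and 212 in normal cells. No tumor array overlapped a normal array in either medium. The log2 change was 1.69 ± 0.34 without arginine (SE, n = 3 arrays per group, limma adjusted p = 0.00167) and 1.39 ± 0.34 with arginine (adjusted p = 0.00669), that is 3.22-fold and 2.63-fold. Both normal arrays of experiment 1 were below the threshold of the filter on low signals (169 without and 191 with arginine). The sizes therefore rest partly on low signals. Over 21 alternatives the estimates fell as low as 1.29 without and 1.18 with arginine, with every call kept.

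Hk1, the hexokinase of most tissues, had 1304, 1346 and 1423 in tumor cells without arginine, against 604, 1272 and 1175 in normal cells. Where arginine was given, Hk1 read 1652, 1638 and 1784 in tumor cells, against 1057, 1040 and 1095 in normal cells. The groups did not overlap in either medium, yet only the comparison with arginine passed (log2 change 0.67 ± 0.23, adjusted p = 0.0369; without arginine 0.49 ± 0.23, adjusted p = 0.104). The call with arginine was lost when any 1 of the 6 arginine-sufficient arrays was left out (adjusted p 0.0676 to 0.101) or the tumor arginine-deficient array of experiment 2 (0.0507), and in 10 of 21 alternatives in all, with adjusted p up to 0.103. Without arginine Hk1 passed when the normal arginine-deficient array of experiment 2 was left out (adjusted p = 0.0333). The 3 control probe sets of Hk1 lie at the 3′ end, the middle and the 5′ end of the transcript and were not tested. The 3′ set read 364 to 460 in tumor cells without arginine, against 157 to 342 in normal cells, and 496 to 564 in tumor cells with arginine, against 199 to 382 in normal cells. The middle and 5′ sets overlapped between the lines without arginine and did not overlap with arginine, where tumor cells were higher. The 3′ over 5′ ratio of these sets was 1.64 to 2.75 in tumor and 1.40 to 1.85 in normal cells without arginine, and 1.63 to 2.299 in tumor and 1.61 to 1.90 in normal cells with arginine.

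Within an array, the log2 signal of Hk2 minus that of Hk1 was -1.60 to -0.61 in tumor cells, against -2.68 to -2.03 in normal cells, without arginine. With arginine it was -1.90 to -1.44 in tumor cells, against -2.86 to -2.09 in normal cells. The balance therefore lay 1.20 and 0.73 further toward Hk2 in tumor cells (two-sided exact permutation test, p = 0.1 for both, the smallest p that 3 against 3 arrays allow). Different probe sets share no scale, so these values are read only between the lines and say nothing of which isozyme was more abundant.

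Gpi, which turns glucose-6-phosphate into fructose-6-phosphate, had 3236, 4140 and 5017 in tumor cells without arginine, against 2374, 4611 and 2919 in normal cells. The arginine-sufficient arrays read 5008, 5193 and 5301 in tumor cells, against 3500, 5037 and 3688 in normal cells. The normal arrays of experiment 2 reached into the tumor range in both media. The log2 changes of 0.36 without arginine (95% interval -0.15 to 0.87) and 0.36 with arginine (-0.15 to 0.87) did not pass. Without the normal arginine-deficient array of experiment 2, Gpi passed in medium without arginine (adjusted p = 0.0348).

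Phosphofructokinase commits sugar to glycolysis. Pfkp, its platelet type, had 594, 472 and 571 in tumor cells without arginine, against 208, 229 and 318 in normal cells. Arginine-sufficient cultures gave 570.4, 431 and 617 in tumor cells, against 319, 253 and 392 in normal cells. The lines did not overlap in either medium, and the log2 change was 1.13 ± 0.23 without arginine (adjusted p = 0.00148) and 0.75 ± 0.23 with arginine (adjusted p = 0.0203). The call with arginine was lost without the normal arginine-sufficient array of experiment 2 or without the tumor arginine-sufficient array of experiment 1 or 3, and without both normal arrays of experiment 2, with adjusted p up to 0.0894.

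Pfkl, the liver type, had 785, 967 and 1051 in tumor cells without arginine, against 496, 1738 and 774 in normal cells. With arginine it had 1087, 1138 and 1299 in tumor cells, against 745, 1889 and 852 in normal cells. Both normal cultures of experiment 2 lay above every tumor culture, and the other 4, at 496 to 852, reached only the lowest of the 6 tumor cultures. The log2 change was 0.09 without arginine (95% interval -0.77 to 0.94) and 0.14 with arginine (-0.72 to 0.997). The log2 signal of Pfkp minus that of Pfkl was -1.03 to -0.40 in tumor cells, against -2.92 to -1.26 in normal cells, without arginine (exact permutation test, p = 0.1). With arginine it was -1.40 to -0.93 in tumor cells, against -2.90 to -1.12 in normal cells, which overlap (exact permutation test, p = 0.4).

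Aldoa, the aldolase that splits fructose-1,6-bisphosphate, had 13094, 17066 and 18513 in tumor cells without arginine, against 10176, 14984 and 11054 in normal cells. In medium with arginine it read 10268, 12635 and 16667 in tumor cells, against 9144, 12829.9 and 11291 in normal cells. The groups overlapped in both media, and the log2 changes of 0.43 (95% interval -0.03 to 0.89) without arginine and 0.24 (-0.22 to 0.69) with arginine did not pass.

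Pgk1, which makes the first ATP of the payoff steps, was measured by a pair of bright probe sets. On 1387361_s_at it had 8092, 11704 and 14129 in tumor cells without arginine, against 3382, 4783 and 3569.8 in normal cells. The arginine-sufficient signals of this probe set were 7935, 11707 and 11332 in tumor cells, against 2872, 4138 and 3072 in normal cells. On 1388318_at it had 9924, 15870.0 and 18115 in tumor cells without arginine, against 5766, 7810.1 and 5133 in normal cells. Those with arginine were 9772, 14359 and 17038 in tumor cells, against 4952, 6161 and 5538 in normal cells. Every tumor array lay above every normal array on both. The log2 changes were 1.51 ± 0.23 and 1.21 ± 0.25 without arginine (adjusted p = 0.000215 and 0.00179) and 1.62 ± 0.23 and 1.27 ± 0.25 with arginine (adjusted p = 0.000148 and 0.00149). The third probe set, 1368906_at, read 0.5 to 39.8 on all arrays and was not tested.

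Pgam1, which moves the phosphate of phosphoglycerate, had 14459.9, 16712 and 19391 in tumor cells without arginine, against 10202, 14469 and 10028 in normal cells. With arginine it had 13628, 14271 and 16629 in tumor cells, against 9406, 12401 and 10158 in normal cells. The normal array of experiment 2 without arginine was slightly above the lowest tumor array. The log2 changes of 0.55 ± 0.18 (adjusted p = 0.0236) without arginine and 0.48 ± 0.18 (adjusted p = 0.0499) with arginine passed, and the calls were lost in 6 of 21 and 12 of 21 alternatives, with adjusted p up to 0.0985 and 0.165. Without arginine these included leaving out the tumor arginine-deficient array of experiment 2 (0.0616) or 3 (0.0985), or the normal one of experiment 1 (0.0843) or 3 (0.0840). With arginine they included leaving out any 1 of the tumor arginine-sufficient arrays (0.0615 to 0.160), the normal one of experiment 1 (0.165) or 3 (0.132), the tumor arginine-deficient array of experiment 2 (0.0673) or the normal one of experiment 1 (0.0530).

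Eno1, the enolase of most tissues, had 14051, 17244 and 19425 in tumor cells without arginine, against 3750.0, 6570.1 and 4888 in normal cells. Eno1 signals with arginine were 12202, 13055 and 18027 in tumor cells, against 3579.6, 5588 and 5149.7 in normal cells. The lowest tumor array stood well above the highest normal array in both media. The log2 changes were 1.76 ± 0.23 without arginine (adjusted p = 6.51e-05), the largest of the members in that medium, and 1.60 ± 0.23 with arginine (adjusted p = 0.000167).

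Ldha, the subunit that favours lactate formation, had 9936, 12741 and 15156 in tumor cells without arginine, against 7936, 15711 and 9103 in normal cells. Ldha signals with arginine were 13028, 13412 and 16801 in tumor cells, against 9332, 15048 and 12739 in normal cells. The cell lines overlapped in both media. The log2 change was 0.25 without arginine (95% interval -0.29 to 0.80) and 0.24 with arginine (-0.31 to 0.78), so a change of up to 1.74-fold was within the interval and the larger ones of Eno1, Hk2 and Pgk1 were not.

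**Figure D2:**
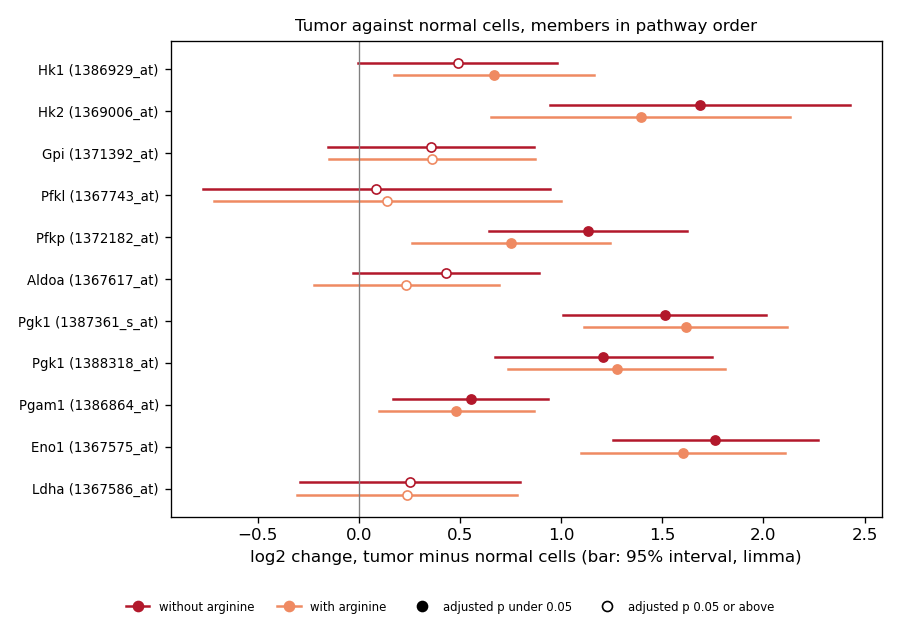
Log2 change of each member, tumor minus normal cells, without and with arginine, in pathway order from top to bottom. Points are limma estimates from 3 arrays per group, bars are 95% intervals and filled points have an adjusted p under 0.05. All 11 estimates are above 0 in both media, from 0.09 (Pfkl) to 1.76 (Eno1) without arginine and from 0.14 (Pfkl) to 1.62 (Pgk1) with arginine.

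Tumor and normal arrays were scanned on different days and from different chip lots, so the cell line, the scan day and the lot cannot be told apart in these comparisons. As a measure of RNA quality, the 3′ to 5′ signal ratio of Gapdh was 1.12 to 1.23 in tumor and 1.01 to 1.38 in normal cells without arginine, and 1.09 to 1.14 in tumor and 0.998 to 1.25 in normal cells with arginine. That of Actb was 1.21 to 1.63 in tumor and 0.9995 to 1.41 in normal cells without arginine, and 1.01 to 1.28 in tumor and 1.098 to 1.16 in normal cells with arginine. Its highest value, 1.63, was that of the tumor arginine-deficient array of experiment 3, whose arginine-sufficient partner had 1.01, and the part of this ratio in the arginine responses was not tested. The epithelial keratin Krt8 read 5692 to 11223 in tumor and 2159 to 7042 in normal cells, while the other 4 epithelial markers (Krt18, Krt19, Cdh1 and Epcam), the 5 hepatocyte probe sets and the 2 endothelial ones did not pass the filter. Of 5 leukocyte probe sets only that of Cd14 passed it. Stellate cell and fibroblast markers (5 probe sets of 4 genes) summed to 942 to 1165 in tumor and 20885 to 31516 in normal cells without arginine, and to 1359 to 1516 in tumor and 24990 to 45295 in normal cells with arginine. Most of the normal sum came from the 2 probe sets of Col1a1, with means of 5499 and 18832 in normal cells without arginine. Acta2 was lower in tumor cells in both media, Des only with arginine (adjusted p = 0.0208, against 0.201 without), and Pdgfrb was not above the filter. The mesenchymal filament Vim read 10354 to 15657 in tumor and 13491 to 19486 in normal cells. Its log2 change was -0.26 without arginine (limma adjusted p = 0.218) and -0.65 with arginine (adjusted p = 0.00738). Fewer cells of a type and less RNA per cell cannot be told apart in such cultures, and the part of these markers in the members' differences was not tested.

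Without arginine, no member changed in either cell line by the test. In tumor cells 0 of 11 member probe sets passed (1.91% of all tested did), with log2 changes from -0.35 to 0.31 and a smallest adjusted p of 0.535. In normal cells 0 of 11 passed (0.164% of all), with changes from -0.35 to 0.22 and a smallest adjusted p of 0.676. At an unadjusted p under 0.05 the members also gave 0 in both lines, against 15.3% of all tested probe sets in tumor and 9.44% in normal cells. The difference between the responses of tumor and normal cells passed for 0 of 11 members and for 0 of 9745 probe sets in all (550 at an unadjusted p under 0.05). Intervals for single members were wide: for Ldha from -0.75 to 0.34 in tumor and from -0.76 to 0.33 in normal cells, for Hk2 from -0.56 to 0.91 and from -0.86 to 0.62, and for Eno1 from -0.27 to 0.74 and from -0.43 to 0.58.

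With the experiment as a block, 0 of 11 members passed in tumor cells (11.0% of all) and 0 of 11 in normal cells (2.41% of all). The same comparison can be read within experiments. Gpi was lower in the arginine-deficient culture in 6 of 6 experiments, with log2 ratios of -0.63, -0.33 and -0.08 in tumor cells and -0.56, -0.13 and -0.34 in normal cells. Pfkl was likewise lower in 6 of 6, with -0.47, -0.24 and -0.31 in tumor cells and -0.59, -0.12 and -0.14 in normal cells. Of all tested probe sets 10.1% were lower in 6 of 6, so 2 of 11 members is near the background. None of the members was higher in 6 of 6 (6.96% of all). Aldoa, Pgam1, Eno1 and both probe sets of Pgk1 were higher in 5 of 6, and Ldha was lower in 5 of 6.

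Averaged over both lines, log2 responses were below 0 for Hk1 (-0.23), Gpi (-0.34), Pfkl (-0.31), Pfkp (-0.16) and Ldha (-0.21), and were 0.03 for Hk2, 0.21 for Aldoa, 0.17 and 0.12 for Pgk1, 0.14 for Pgam1 and 0.16 for Eno1. This average was added after the data were seen. With the experiment as a block it passed for Gpi alone (SE 0.09, adjusted p = 0.0295; without the block, adjusted p = 0.288), and 14.7% of all probe sets passed in that fit. The next were Pfkl (adjusted p = 0.0561) and Aldoa (adjusted p = 0.0723). Within scan days of normal cells the difference of Gpi was -0.08 and -0.34, and within chip lots of tumor cells -0.18 and -0.68. In tumor experiments 1 and 2 the paired cultures were on different lots, so both lot values compare cultures across experiments. The lot with -0.68 held 1 culture per medium: experiment 1 without arginine (trypsin recorded) and experiment 2 with arginine (no trypsin). The part of the experiment in these lot values was not tested. Pfkl gave 0.32 and -0.14 within those days and -0.24 and -0.54 within those lots; the day with 0.32 held the high arginine-deficient array of experiment 2 without its partner.

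In tumor cells Hk1 and Pfkl were lower on all 3 arginine-deficient arrays than on all 3 arginine-sufficient ones, which was so for 13.6% of all probe sets. The log2 changes, -0.32 ± 0.23 for Hk1 (adjusted p = 0.568) and -0.34 ± 0.40 for Pfkl (adjusted p = 0.753), did not pass. In normal cells 0 of 11 members separated the media in either direction, against 13.9% of all probe sets.

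**Figure D3:**
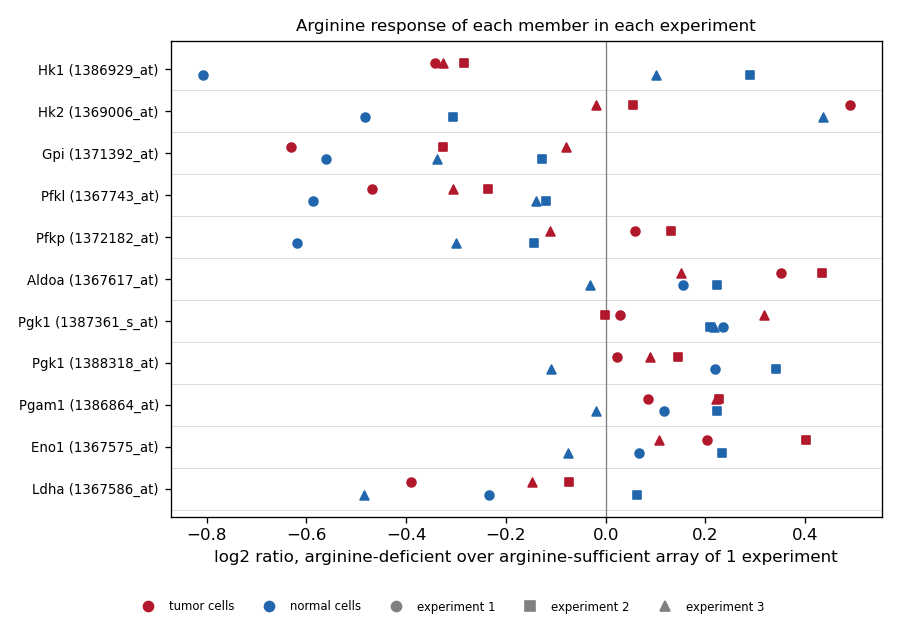
Log2 ratio of the arginine-deficient over the arginine-sufficient array in each experiment, for each member in tumor cells (upper row of points) and normal cells (lower row). Shapes are experiments 1 to 3. Gpi and Pfkl lie left of 0 in 6 of 6 experiments, and no member lies right of 0 in all 6.

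The members also differed between experiments of the same line. In normal cells the mean of both media was highest in experiment 2 for 9 of 11 members (32.7% of all tested probe sets) and lowest in experiment 1 for 9 of 11 (31.9%). In tumor cells it was highest in experiment 3 for 10 of 11 members (32.6% of all) and lowest in experiment 1 for 9 of 11 (37.5%). Between the highest and the lowest experiment the mean of Pfkl differed 1.26-fold in tumor and 2.98-fold in normal cells, that of Ldha 1.40-fold and 1.79-fold, and that of Hk2 1.52-fold and 2.004-fold. In normal cells the arginine-deficient array of experiment 2 shared its scan day and lot with experiment 1, and its arginine-sufficient partner was alone on its day and lot, while both read high. Run records state no trypsin for tumor experiment 2 and trypsin for the other tumor experiments, and their part was not tested.

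Genes around the members were read from 10 lists of the pathway's other steps, carriers and regulators, with 102 tested probe sets of 85 genes. Of these 23 were higher and 16 lower in tumor cells without arginine, and 22 higher and 15 lower with arginine. These are 22.5% and 15.7% without arginine, against 19.5% and 21.2% of all tested probe sets, and 21.6% and 14.7% with arginine, against 16.4% and 18.1% of all, and the counts of single lists are to be read against the same shares. Among sugar carriers 4 of 5 tested probe sets, of 3 genes, were higher in both media and 0 were lower. Slc2a1 (GLUT1), the widespread glucose carrier, had means of 1679 in tumor and 849 in normal cells without arginine and 1649 and 641 with arginine (log2 changes 1.01 ± 0.20 and 1.38 ± 0.20, adjusted p = 0.00131 and 0.000151). Slc2a3 (GLUT3) was higher on both its probe sets, by 0.84 and 0.81 without arginine and 1.25 and 1.29 with arginine. On the second, 1387707_at, 4 of 6 normal arrays were above the filter's signal threshold. With low signals raised to it that probe set gave 0.81 and 1.20. Slc2a5, mainly a fructose carrier, was above the filter's signal threshold on 1 of 6 normal arrays. With signals below the threshold raised to it, Slc2a5 was at least 6.95-fold higher in tumor cells without arginine and at least 3.20-fold higher with arginine (fit on the measured signals, adjusted p = 0.000538 and 0.00459). Slc2a8 did not pass (log2 changes -0.20 and 0.50), and Slc2a2 and Slc2a4 were not above the filter.

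Among other lactate dehydrogenases, lactate carriers and their partners 2 of 7 tested probe sets were higher and 2 lower in both media. Slc16a3 (MCT4), basigin (Bsg) and Ldhd did not pass in either medium. Ldhb, the subunit that favours pyruvate, had 45.2, 141 and 152 in tumor cells without arginine, against 1309.8, 1967 and 1644 in normal cells. With arginine it had 17.3, 24.9 and 109 in tumor cells, against 1513, 2348 and 2117 in normal cells. Only 1 of the 6 tumor arrays was above the filter's signal threshold. With tumor signals below the threshold raised to it, Ldhb was at least 10.1-fold lower in tumor cells without arginine and at least 11.8-fold lower with arginine (fit on the measured signals, adjusted p = 0.000118 and 6.06e-06). Slc16a1 (MCT1), which carries lactate and pyruvate across the membrane, was higher in tumor cells by 1.96 ± 0.18 without arginine and 2.02 ± 0.18 with arginine (adjusted p = 2.44e-06 and 1.99e-06). Slc16a7 (MCT2) was higher by 1.17 and 0.78, with 5 of 6 normal arrays above the threshold (1.09 and 0.78 with low signals raised to it). Embigin (Emb), a partner protein of such carriers, was lower, with log2 changes of -1.13 and -1.38.

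**Figure D4:**
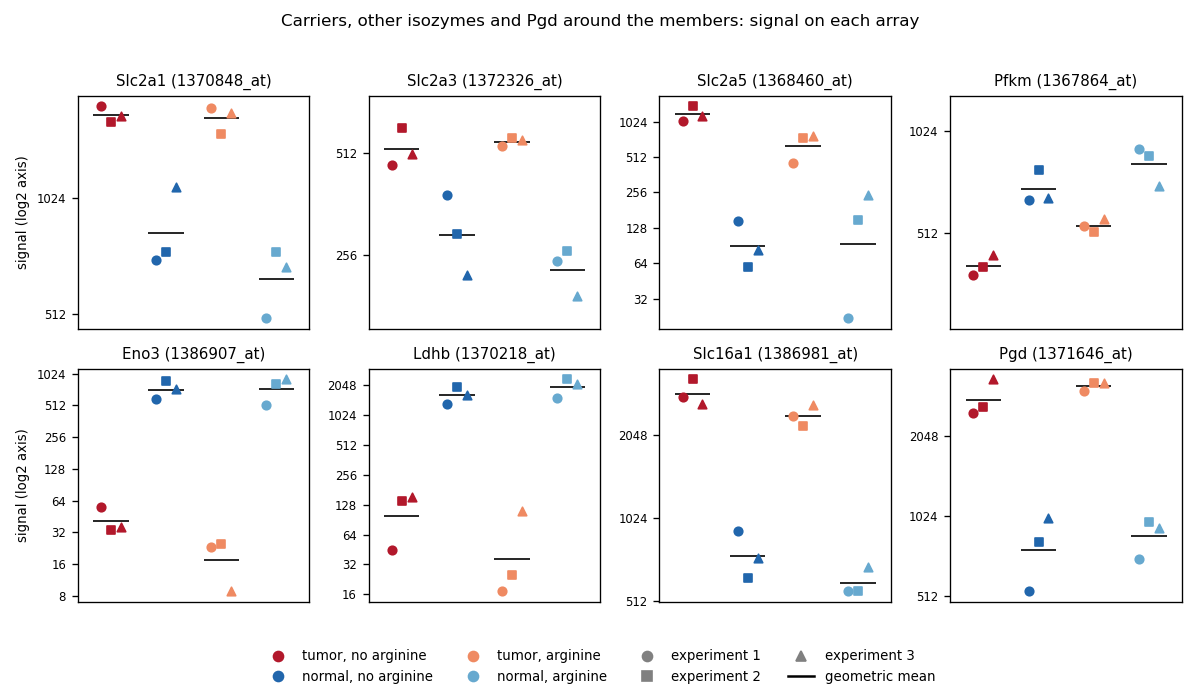
Signal of 8 genes around the members on each of the 12 arrays, on a log2 axis, with colour for the group, shape for the experiment and the geometric mean as a line. Sugar carriers (Slc2a1, Slc2a3, Slc2a5), the lactate carrier Slc16a1 and Pgd are higher in tumor cells, and Pfkm, Eno3 and Ldhb are lower.

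Among other isozymes and steps 1 of 9 tested probe sets was higher and 3 were lower in each medium. Eno3, the muscle enolase, had 34.0 to 56.1 in tumor and 591 to 882 in normal cells without arginine, and 8.9 to 25.0 in tumor and 515 to 909 in normal cells with arginine. All 6 tumor arrays were below the threshold, and with signals raised to it Eno3 was at least 4.60-fold lower without arginine and at least 4.36-fold lower with arginine (fit on the measured signals, adjusted p = 4.12e-06 and 4.39e-07). The muscle phosphofructokinase Pfkm was lower on 1367864_at, with log2 changes of -0.75 ± 0.16 and -0.60 ± 0.16 (adjusted p = 0.00273 and 0.0112). Its dimmer probe set 1386961_at passed without arginine only (adjusted p = 0.00267, against 0.0849 with arginine), where 0 of 6 tumor arrays were above the threshold, and passed in both media with low signals raised to it (adjusted p = 0.0377 and 0.0165). Bpgm, which makes 2,3-bisphosphoglycerate, was higher by 0.78 and 1.08. Eno2, the neuronal enolase, did not pass in either medium, with log2 changes of 0.49 and -0.03.

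The pentose phosphate pathway, which branches from glucose-6-phosphate, had 4 of 8 probe sets higher without arginine, 2 of 8 with arginine and 0 lower. Pgd, the phosphogluconate dehydrogenase that yields NADPH, was higher by 1.89 ± 0.22 in both media (adjusted p = 2.51e-05 and 2.74e-05), and the transketolase Tkt by 0.72 and 0.57. Among glycerol, mannose and glycogen branches 6 of 19 were higher and 1 lower without arginine, and 7 and 1 with it. Pgm1, the link to glycogen, was higher by 1.55 and 1.59 on 1388634_at. On its dimmer probe set 1369473_at, with 2 of 6 normal arrays above the threshold and lower signals raised to it, it was at least 2.75-fold and 2.69-fold higher. Gpd2, the mitochondrial glycerol-3-phosphate dehydrogenase, was at least 1.93-fold higher without arginine and at least 1.64-fold higher with arginine on 1387670_at, where 0 of 6 normal arrays were above the threshold and signals below it were raised to it. Its other probe set, 1369666_at, had means of 364 in tumor and 266 in normal cells without arginine, and 527 and 335 with arginine. It did not pass without arginine (log2 change 0.46, adjusted p = 0.107) and was higher in tumor cells with arginine (0.67, adjusted p = 0.0265). Where pyruvate enters mitochondria, 3 of 15 were higher and 2 lower without arginine, and 2 and 2 with it. Pdk3, a kinase that inhibits pyruvate dehydrogenase, was higher by 1.07 and 1.80, and Mpc2, a subunit of the pyruvate carrier, was lower, with log2 changes of -0.60 and -0.59. Pdk2 (1367892_at), another such kinase, went the other way from Pdk3. Its log2 changes were -2.01 without arginine (adjusted p = 0.0107) and -1.37 with arginine, which did not pass (adjusted p = 0.0707). For Pdk2 3 of 6 tumor arrays were above the threshold, and with low signals raised to it both comparisons passed (adjusted p = 0.00739 and 0.0018). Pdp1, a phosphatase of pyruvate dehydrogenase, was higher by 0.57 and 0.59 (adjusted p = 0.0212 and 0.0209). Pdk4 was higher without arginine only (0.69, adjusted p = 0.0499), and did not pass with low signals raised to the threshold (adjusted p = 0.304). Pdhb was lower with arginine only (-0.40, adjusted p = 0.0376). For genes that set fructose 2,6-bisphosphate, 0 of 4 tested probe sets, of 3 genes, passed in either direction.

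Of the factors HIF1 and MYC and their partners 2 of 13 probe sets were higher and 2 lower in both media. Hif1a did not pass in either medium, with log2 changes of 0.07 and 0.35 (adjusted p = 0.854 and 0.371). Myc was higher by 1.15 ± 0.30 and 1.19 ± 0.30 (adjusted p = 0.0081 and 0.00809), and Egln1, a prolyl hydroxylase that marks HIF for degradation, by 0.96 and 1.15. Myc was above the threshold on 5 of 6 normal arrays, and with low signals raised to it gave 1.15 and 1.02. Epas1 (HIF2A) was lower on both probe sets, with log2 changes of -2.02 and -1.52 without arginine and -2.33 and -1.82 with arginine. Targets of HIF1 outside glycolysis went both ways: 1 of 17 was higher and 5 lower without arginine, and 1 and 3 with arginine. Ndrg1 was higher by 1.54 and 1.33, while Ddit4, an inhibitor of mTORC1, was lower, with log2 changes of -2.20 and -1.60. Ddit4 was above the threshold on 4 of 6 tumor arrays, and with low signals raised to it gave -2.20 and -1.55.

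Without arginine 2 of these 102 probe sets rose in tumor cells and 0 fell, a share of 1.96% against 1.91% of all tested probe sets, and 0 passed in normal cells (0.164% of all). They were Pck2 (1376247_at), the mitochondrial phosphoenolpyruvate carboxykinase of gluconeogenesis, and the angiogenic factor Vegfa (1373807_at). Pck2 had 1098, 1178 and 999 in arginine-deficient against 542, 545 and 419 in arginine-sufficient tumor cells (log2 change 1.13 ± 0.19, adjusted p = 0.0139). In normal cells it had 1644, 1281 and 1825 in arginine-deficient against 876, 906 and 655 in arginine-sufficient cultures (0.96 ± 0.19, adjusted p = 0.0979). The rise of Vegfa in tumor cells was 1.35 ± 0.28 (adjusted p = 0.0305), where normal cells gave 1.35 ± 0.28 without passing (adjusted p = 0.115). The second probe sets did not pass in tumor cells: Pck2 (1375213_at) gave 1.25 (adjusted p = 0.0686) and Vegfa (1370081_a_at) 0.90 (adjusted p = 0.137). Over 25 alternatives the call in tumor cells was lost in 3 for Pck2 (1376247_at), with adjusted p up to 0.215, and in 7 for Vegfa (1373807_at), up to 0.266. In normal cells the same probe sets passed in 4 and 3 of 25, both also when blocked by experiment (adjusted p = 0.0173 and 0.00456), and Pck2 (1375213_at) passed in tumor cells in 4 of 25 (with the block, 0.00614). The difference between the lines' responses passed for none of the 3 (adjusted p from 0.97 to 0.999). In gluconeogenesis, 0 of 5 probe sets were higher and 1 lower in tumor than in normal cells without arginine, and 1 and 2 with arginine, where Pck2 (1376247_at) was lower, with log2 changes of -0.52 and -0.69 (adjusted p = 0.0434 and 0.0137). Its call without arginine was lost in 11 of 21 alternatives, with adjusted p up to 0.153 without the normal arginine-deficient array of experiment 3, and its call with arginine in 3 of 21.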

How the data were processed

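RNA of 12 cultures was hybridised to Affymetrix RAE230A arrays. The deposited values are intensities, signals that the authors made from perfect match and mismatch probes with Microarray Suite 5.0 and scaled per array (mean 500.1 to 500.2 after trimming 2% at each end). Signals below 1 were set to 1 before log2. A probe set was tested when among the highest 54% of its array (at or above 146 to 191) in at least 3 of 12 arrays; 57 controls were left out. limma 3.58.1 (R 4.3.3; 1 mean per group, trend, 8 residual degrees of freedom) was used with Benjamini-Hochberg adjustment over 9745 probe sets and a threshold of 0.05. The fit was run on simulated arrays with independent noise and changes planted only in the arginine comparison of tumor cells. The simulation held no pairing of cultures, so it does not test the fit for paired arrays.

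Experiments were paired from the study's first table and, for tumor cells, by title number and run records. Deviations from the group mean correlated within pairs at 0.56, 0.04 and 0.42 (tumor) and 0.43, 0.42 and 0.38 (normal). The tumor arginine-deficient array of experiment 2 correlated more with the arginine-sufficient array of experiment 3, at 0.28. Counts within experiments and fits with blocks rest on this pairing. The methods state independent experiments, so p-values measure the spread between cultures. Alternatives covered the filter, low signals, an offset of 16, scaling, a plain linear model, blocks, 1 line alone, the 2-fold rule (6 of 9 ratios) and leaving out arrays. The number of arrays limits the precision. All members were named, and of other lists at most the 4 largest changes that passed per list and comparison. Members and lists were chosen with earlier results of these data known. Figures used matplotlib 3.10.9 in Python 3.11.15.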

Additional observations from a re-analysis of the deposited data

How the results depend on the processing

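For tumor against normal cells, Eno1, Hk2 and both probe sets of Pgk1 passed in 21 of 21 alternatives in both media, and Pfkp in 21 of 21 without arginine and 17 of 21 with it. The number of members higher in tumor cells with arginine, 7, was 4 to 7 when 1 array was left out, with 4 without the tumor arginine-sufficient array of experiment 1 or that of experiment 3. Hk1 lost its call with arginine in 10 of 21 alternatives. Without arginine Hk1 (adjusted p = 0.0333) and Gpi (adjusted p = 0.0348) passed when the normal arginine-deficient array of experiment 2 was left out, and both again without both normal arrays of experiment 2 (0.04165 and 0.0252), an alternative chosen after seeing the data. The response to arginine within each line gave 0 members under every alternative run, also with the experiment as a replicate block (smallest adjusted p 0.076 in tumor and 0.19 in normal cells). For the response averaged over both lines the block changed 1 member's call, that of Gpi (adjusted p = 0.0295, against 0.288 without the block). With 1 line alone the count was 0 of all members, with 1668 (tumor) and 796 (normal) probe sets at an unadjusted p under 0.05. No call changed sign. Of 999 values of members that passed neither way, 76 had the other sign. Scan day and lot blocks could not be fitted for tumor against normal cells. With 3 arrays per group, changes within the printed intervals were not excluded.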
